A study of Mus musculus with 18 samples.

Results

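Here 5 genes that are seldom named in accounts of the response to lipopolysaccharide (LPS) were followed across the series: U90926, AW112010, Tarm1, Draxin and Marcksl1. They were chosen by name for a large difference between LPS-treated and untreated libraries, and all 5 were found among 13598 genes with a value and among the 9707 genes tested. The comparison of LPS with control is therefore given for them as a description, with no test. The differences between genotypes were not used in the choice and were tested.

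RNA-seq libraries were made from peritoneal macrophages of mice of 3 genotypes: WT, TLR4-K730R and TLR4-K810R. Toll-like receptor 4 (TLR4) is the receptor that senses LPS, and each mutant carries a lysine to arginine exchange in its intracellular TIR domain, an exchange that keeps the charge but cannot be acetylated. Cells of each genotype were left untreated (control) or received LPS at 100 ng/ml for 6 h, which gives 6 groups of 3 libraries. The comparison of the mutants with WT asks whether these lysines matter for the transcriptional response. The mutant mice were made with CRISPR/Cas9 on a C57BL/6 background and the macrophages were elicited with thioglycolate. All groups therefore share the elicitation. The labels give neither the age of the mice nor whether the 3 libraries of a group came from separate animals, so the p-values measure only the spread between these libraries.

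TLR4 signals through MyD88 to NF-κB and through TRIF to interferon regulatory factors, so LPS turns on cytokine genes quickly and interferon-stimulated genes after them. Alongside these well-known targets, macrophages raise transcripts with other roles: noncoding RNAs, receptors, guidance cues and cytoskeletal proteins. U90926 is annotated as protein coding by GENCODE and as a long noncoding RNA by RefSeq. AW112010 is annotated as a long noncoding RNA from which a small protein is known to be translated. Tarm1 encodes an activating immunoglobulin-like receptor of myeloid cells that signals through the Fc receptor γ chain. Draxin encodes a secreted axon guidance cue that binds netrin and its receptor DCC and can antagonise Wnt signalling at LRP6. Marcksl1 encodes a MARCKS-like substrate of protein kinase C that binds calmodulin and actin.

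The genes lie on 4 chromosomes (GRCm38). U90926 (ENSMUSG00000029409) spans chr5:92209893-92215408 on the minus strand. AW112010 (ENSMUSG00000075010) spans chr19:11047612-11055808 on the minus strand. Tarm1 (ENSMUSG00000053338) spans chr7:3486500-3502624 on the minus strand. Draxin (ENSMUSG00000029005) spans chr4:148098437-148130698 on the minus strand, and Marcksl1 (ENSMUSG00000047945) spans chr4:129513581-129515985 on the plus strand.

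The 250 bases before the RefSeq start (GRCm38) are printed for the 3 genes with the largest differences between LPS and control, since the 5 genes move together with LPS and motifs near their starts are what a reader would look for. Capitals mark matches, on either strand, to the letters of 7 motifs, which are spelled out after the sequences and do not overlap each other here. The windows are chr5:92215409-92215658 for U90926, chr19:11050567-11050816 for AW112010 and chr7:3502625-3502874 for Tarm1, all read on the minus strand.
U90926: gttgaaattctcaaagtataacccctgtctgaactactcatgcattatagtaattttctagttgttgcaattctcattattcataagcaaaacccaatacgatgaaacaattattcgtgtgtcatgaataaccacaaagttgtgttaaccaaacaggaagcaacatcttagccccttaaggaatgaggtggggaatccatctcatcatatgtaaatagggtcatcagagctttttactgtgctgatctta
AW112010: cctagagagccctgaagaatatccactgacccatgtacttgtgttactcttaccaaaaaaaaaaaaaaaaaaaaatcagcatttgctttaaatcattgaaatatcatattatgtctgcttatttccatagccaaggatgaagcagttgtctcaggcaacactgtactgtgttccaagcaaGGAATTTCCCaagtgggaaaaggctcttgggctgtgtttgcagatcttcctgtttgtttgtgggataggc
Tarm1: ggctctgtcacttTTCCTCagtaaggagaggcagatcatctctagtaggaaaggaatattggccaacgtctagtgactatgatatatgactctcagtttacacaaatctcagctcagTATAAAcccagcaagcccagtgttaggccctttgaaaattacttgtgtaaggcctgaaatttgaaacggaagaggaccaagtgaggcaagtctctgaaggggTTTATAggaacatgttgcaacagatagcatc
AW112010 held 1 match to the NF-κB letters GGGNNNTTCC, 70 to 61 bases before the start, a motif found in 4.65% of 32851 promoter windows of the same length. Tarm1 held TATA box letters (TATAAA) at 133 to 128 and, on the other strand, at 31 to 26 bases before the start (12.4% of windows hold at least 1), and a match at 237 to 232 bases to the letters taken for PU.1 (GAGGAA). No listed motif was matched in the U90926 window, which says only that these letters are not in this stretch. The Marcksl1 window held 1 PU.1 match, 62 to 57 bases before the start, as do 23.3% of windows, and the Draxin window held none of the letters. The AP-1 letters TGANTCA occur in 6.75% of all windows and in none of the 5. The interferon motif ISRE (GAAANNGAAA) occurs in 2.98% of windows and in none of the 5 windows before the start, and the same held for the STAT motif GAS (TTCNNNGAA, 7.02%). The C/EBP letters TTGCNNAA, which occur in 9.56% of windows, were also matched in none of the 5. Base composition set the windows apart: G and C made up 36% of the U90926 window, 39.2% for AW112010 and 43.2% for Tarm1, against 60.4% for Marcksl1 and 79.6% for Draxin (median of all windows 52.4%). CpG dinucleotides numbered 2, 0 and 2 in the former 3 windows and 12 and 36 in the latter 2.

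Expression is given as FPKM (fragments per unit of transcript length and of sequencing depth), which is scaled per length so that levels of different genes can be set side by side. First-exon events and last-exon events were summed separately for each gene, and the higher sum was taken as its value in a library. The files hold FPKM only, so the depth of the libraries is unknown and was not used. The 18 libraries listed 80071 to 90401 transcript events each. Among the macrophage markers, Itgam and Cd14 were listed at 0 in all libraries of 5 or more of the 6 groups while the list summed to between 7289 and 14785 FPKM in each library, so a value of 0 in these files is given only as listed at 0. Summed neutrophil markers ranged from 33.9 to 63.6 FPKM in control and from 187 to 253 FPKM in LPS libraries, with Elane listed at 0 in every group and Ly6g at 0 in both WT groups. Of 5 neutrophil markers tested in WT, S100a8 (2.81) and Camp (2.09) passed as higher after LPS and Retnlg (-1.58) as lower. Of all tested genes 10.4% passed as higher and 23.9% as lower there. After scaling each library by the median of ratios, 4 of the markers were tested, with 2 higher and 0 lower. The median log2 difference of the 5 without scaling was 0.011, so the sum mainly follows S100a8. Summed T and NK cell markers stayed at or under 0.96 FPKM. Intestinal epithelial markers summed to at most 0.67 FPKM in WT control and to between 44.1 and 117 FPKM in the control libraries of both mutants, and after LPS to at most 14.8 FPKM in WT and 20.4 FPKM in TLR4-K810R but 51.0 to 58.5 FPKM in TLR4-K730R. The part of these other cells in the results was not tested. In such bulk libraries fewer cells that express a gene and less RNA per cell cannot be told apart.

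All 5 genes were listed higher in each of the 3 LPS libraries than in each of the 3 control libraries, in every genotype. Such a complete separation upwards was found for 15.5% of tested genes in WT, 13.8% for TLR4-K730R and 14.6% for TLR4-K810R, and since the genes were chosen for this contrast nothing is read from it. U90926 and Draxin reached 1 FPKM in the 9 LPS libraries and in no control library, so they passed the filter on low values only through LPS.

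U90926 was barely detected in untreated cells. In WT control it was listed at 0.361, 0 and 0.209 FPKM, and in WT LPS at 569, 559 and 485 FPKM. TLR4-K730R showed 0.526, 0.867 and 0.565 FPKM without and 515, 434 and 434 FPKM with LPS. TLR4-K810R showed 0.535, 0.497 and 0 FPKM without and 291, 297 and 298 FPKM with LPS. Means after LPS were 538 ± 46.0 (SD, n = 3) in WT, 461 ± 46.4 in TLR4-K730R but 295 ± 3.74 in TLR4-K810R, so every TLR4-K810R library lay below every library of the other genotypes. On the log2(FPKM + 1) scale, which understates changes of genes near 0, the difference of LPS from control was 8.83 ± 0.16 (SE) in WT, against 8.13 for TLR4-K730R and 7.81 for TLR4-K810R cells. That placed U90926 at rank 2 of 9707 for WT and TLR4-K730R, and at rank 3 for TLR4-K810R. In WT LPS its level ranked 78 of 13598 genes, against 10433 without LPS.

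AW112010 was present without LPS and had the widest spread of the 5 genes in WT and TLR4-K730R after it. WT control libraries listed 10.8, 12.6 and 9.0 FPKM, and WT LPS libraries 867, 189 and 580 FPKM. In TLR4-K730R the values were 9.51, 8.53 and 8.06 FPKM without and 466, 537 and 288 FPKM with LPS. In TLR4-K810R they were 7.42, 5.16 and 5.53 FPKM without and 323, 325 and 370 FPKM with LPS. The WT LPS mean of 546 ± 341 FPKM (SD, n = 3) thus carried a spread that covered the TLR4-K730R mean of 430 ± 128 and the TLR4-K810R mean of 339 ± 26.8 FPKM, and library WT LPS 2 lay below all other LPS libraries. The log2 difference of LPS from control was 5.29 ± 0.38 (SE) in WT, with 5.43 for TLR4-K730R and 5.61 for TLR4-K810R.

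Tarm1, the myeloid activating receptor, moved from a few FPKM in control to 183 FPKM or more in LPS libraries. WT control libraries listed 2.13, 3.39 and 2.17 FPKM and WT LPS libraries 333, 353 and 345 FPKM. TLR4-K730R listed 2.48, 3.82 and 2.26 FPKM without and 208, 318 and 313 FPKM with LPS. TLR4-K810R listed 0.981, 2.20 and 1.25 FPKM without and 183, 214 and 248 FPKM with LPS. The LPS means were 344 ± 9.97 (SD, n = 3), 280 ± 62.2 and 215 ± 32.3 FPKM, and the WT libraries lay above all mutant libraries. The log2 difference of LPS from control was 6.61 ± 0.21 (SE) in WT, with 6.18 for TLR4-K730R and 6.46 for TLR4-K810R, the rank being 7, 13 and 7 of 9707. Neutrophils are also known to express this receptor, and summed neutrophil markers in LPS libraries were 195 to 253 FPKM for WT, 187 to 245 FPKM for TLR4-K730R and 187 to 210 FPKM for TLR4-K810R. Marker by marker, 1 of 5 tested in TLR4-K810R against WT after LPS passed, S100a9 as higher (1.42, limma adjusted p = 0.0085), and the median difference was 0.20. Of all tested genes 0.134% were called in that comparison. Their part in the Tarm1 values was not tested.

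Draxin, the guidance cue, was listed at 0 in all 9 control libraries and at a low level in all 9 LPS libraries. WT LPS libraries listed 9.60, 9.38 and 11.3 FPKM, TLR4-K730R LPS libraries 9.54, 10.1 and 10.3 FPKM and TLR4-K810R LPS libraries 5.77, 6.21 and 6.13 FPKM. The means were 10.1 ± 1.05 (SD, n = 3), 9.998 ± 0.415 and 6.04 ± 0.237 FPKM, with the 3 TLR4-K810R libraries below the other 6. No fold is given, since the control libraries were listed at 0. On the log2(FPKM + 1) scale the WT difference was 3.47 ± 0.11 (SE), rank 81 of 9707, and its LPS level ranked 3444 of 13598, far below the other 4 genes.

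Marcksl1, the protein kinase C substrate, had the highest mean of the 5 genes in every group. WT control libraries listed 41.3, 37.9 and 44.3 FPKM and WT LPS libraries 671, 693 and 610 FPKM. TLR4-K730R listed 41.7, 52.0 and 44.8 FPKM without and 615, 610 and 709 FPKM with LPS. TLR4-K810R listed 40.6, 30.9 and 42.2 FPKM without and 488, 564 and 561 FPKM with LPS. Its mean level was thus 16.0 times the control level in WT, 13.97 times for TLR4-K730R and 14.2 times for TLR4-K810R, and in WT LPS it ranked 60 of 13598 genes. The means after LPS were 658 ± 43.4 (SD, n = 3), 645 ± 55.8 and 538 ± 42.9 FPKM.

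**Figure D1:**
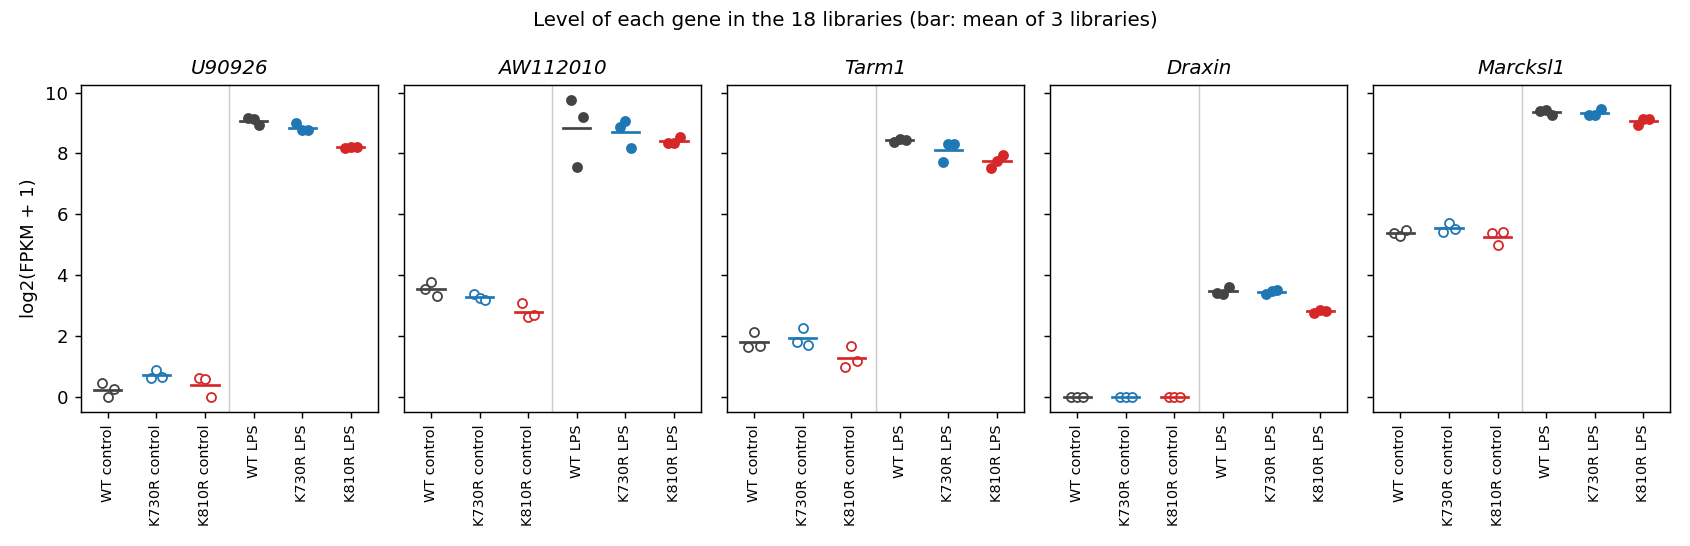
Level of each of the 5 genes as log2(FPKM + 1) in the 18 libraries, with open circles for control and filled circles for LPS libraries, coloured by genotype, and a bar at the mean of 3 libraries. Draxin lies at 0 in all 9 control libraries, AW112010 spreads widely in WT LPS, and the TLR4-K810R LPS libraries of U90926 and Draxin lie below all other LPS libraries.

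In WT LPS the order of mean levels was Marcksl1, AW112010, U90926, Tarm1 and Draxin. AW112010 (189 to 867 FPKM) overlapped Marcksl1, U90926 and Tarm1, so its place in that order did not exceed its spread. Marcksl1 (610 to 693 FPKM) and U90926 (485 to 569 FPKM) did not overlap each other, nor did U90926 and Tarm1 (333 to 353 FPKM). In TLR4-K730R LPS the means of U90926 (461 FPKM) and AW112010 (430 FPKM) changed places, with overlapping libraries. In TLR4-K810R LPS the order was that of WT, and U90926 (291 to 298 FPKM) lay below AW112010 (323 to 370 FPKM) in all libraries.

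A list of 10 widely used LPS targets gave a scale for these values. Of these, 9 passed the test as higher after LPS in each genotype, as did 10.4%, 9.32% and 9.08% of tested genes in WT, TLR4-K730R and TLR4-K810R. The median log2 difference of the list in WT was 4.84, against 5.29 for the 5 genes and -0.28 for all tested genes. Il1b, the pyrogenic cytokine, went from 2.49 to 1613 FPKM in WT (log2 difference 8.85) and was the only gene ranked above U90926. Nos2, the inducible nitric oxide synthase, went from 0.269 to 343 FPKM, a WT LPS level like that of Tarm1. Tnf went from 15.2 to 251 FPKM and Il6 from 0.0882 to 29.9 FPKM, both lower after LPS than 4 of the 5 genes. Il12b was listed at 0 in all 3 WT control libraries and averaged 11.3 FPKM after LPS, close to Draxin. Saa3, an acute phase protein, averaged 11364 FPKM in WT LPS but varied so much between libraries that its difference of 3.06 had an SE of 2.59 and did not pass (limma adjusted p = 0.351).

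**Figure D2:**
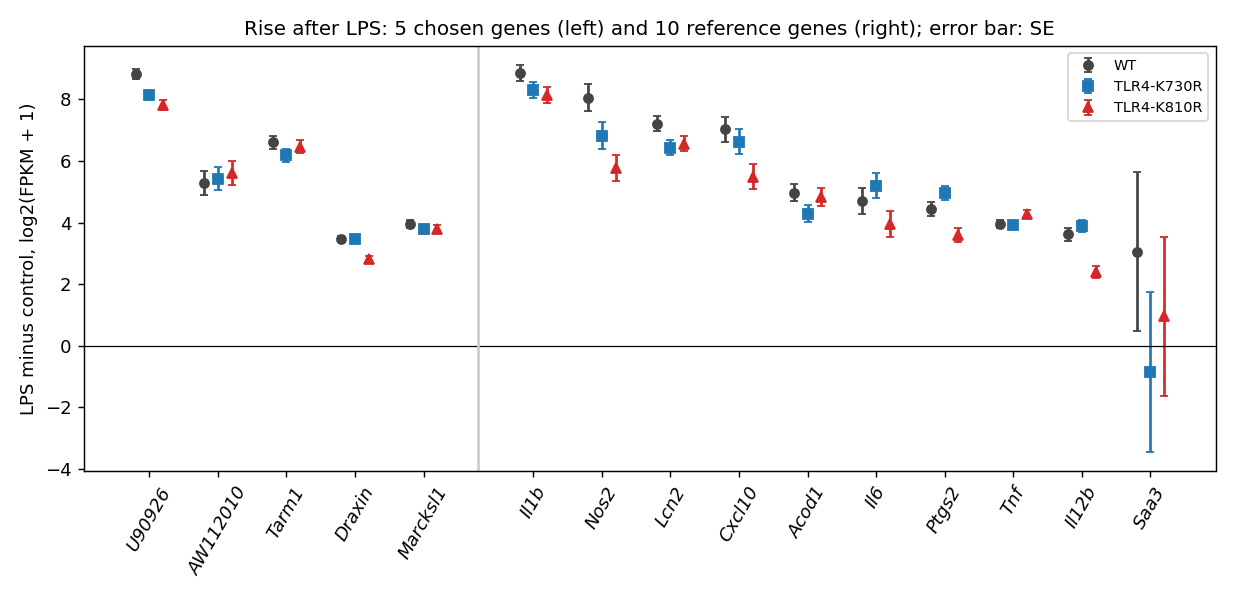
Difference of LPS from control in log2(FPKM + 1) for the 5 genes (left) and 10 reference LPS targets (right) in each genotype, with error bars of 1 SE from the fit of all 18 libraries. U90926 at 8.83 in WT stands beside Il1b at 8.85, and Draxin at 3.47 beside Il12b at 3.62.

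The mutants were then compared with WT after LPS, a contrast the choice of genes did not use. For TLR4-K810R, all 5 genes had lower means than WT, with a median log2 difference of -0.65 against 0.11 over all tested genes. None passed an adjusted p below 0.01, and neither did the great majority of genes, since 0.134% of 9707 were called. Of the 5, 4 had every TLR4-K810R library below every WT library, as did 7.89% of all tested genes, and the same 4 had an unadjusted p below 0.05, as did 21.8%. U90926 differed by -0.86 (SE 0.16, 95% interval -1.20 to -0.52, limma adjusted p = 0.0175), that is, its mean was 0.549 times that of WT. Draxin differed by -0.65 (SE 0.11, interval -0.89 to -0.42, limma adjusted p = 0.0155), with a mean 0.598 times that of WT. Its spread in the shared fit is drawn in part from 3 control groups listed at 0 with no spread. Tarm1 differed by -0.68 (SE 0.21, interval -1.14 to -0.23, limma adjusted p = 0.0922) and Marcksl1 by -0.29 (SE 0.13, interval -0.56 to -0.02, limma adjusted p = 0.202). AW112010 differed by -0.43 with an interval from -1.25 to 0.39 (limma adjusted p = 0.551), and the difference was 0.031 without library WT LPS 1 and -1.07 without library WT LPS 2, the lowest WT LPS value.

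The calls for U90926 and Draxin lay close to the threshold and turned with the settings. Over 30 alternatives the U90926 difference stayed between -1.01 and -0.82 and passed in 5 of them (limma adjusted p from 0.000426 to 0.411), and the Draxin difference stayed between -0.80 and -0.45 and passed in 7 (limma adjusted p from 0.00183 to 0.163). Without library WT LPS 3 both passed (limma adjusted p = 0.00715 for U90926 and 0.00912 for Draxin). Scaling each library by the median of ratios shifted the median of all genes in this comparison by -0.12, and both passed after it (differences -1.01 and -0.80).

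For TLR4-K730R after LPS, no difference from WT passed for these genes. The median log2 difference of the 5 was -0.13 against -0.042 over all tested genes, and 0 of 9707 genes were called by limma (7.69% at an unadjusted p below 0.05, none of the 5 among them). U90926 differed from WT by -0.22 (interval -0.56 to 0.12, limma adjusted p = 0.764) and Tarm1 by -0.32 (interval -0.77 to 0.13, limma adjusted p = 0.749). Tarm1 was the only 1 of the 5 with all 3 TLR4-K730R libraries below WT, as were 7.54% of tested genes. Draxin differed by -0.0092 (interval -0.24 to 0.23), Marcksl1 by -0.030 (interval -0.30 to 0.24) and AW112010 by -0.13 (interval -0.95 to 0.68). These comparisons share the WT libraries with those of TLR4-K810R.

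The mutants were also set against each other. After LPS, Draxin was lower in TLR4-K810R than in TLR4-K730R by a log2 difference of -0.64 (SE 0.11, interval -0.88 to -0.41, limma adjusted p = 0.0183), and U90926 by -0.64 (SE 0.16, interval -0.98 to -0.30, limma adjusted p = 0.0612). Neither passed, in a comparison where 0.0618% of genes were called. Marcksl1 (-0.26), Tarm1 (-0.36) and AW112010 (-0.30) had intervals that included 0. U90926, Draxin and Marcksl1 had all TLR4-K810R libraries below all TLR4-K730R libraries, as did 4.44% of tested genes.

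**Figure D3:**
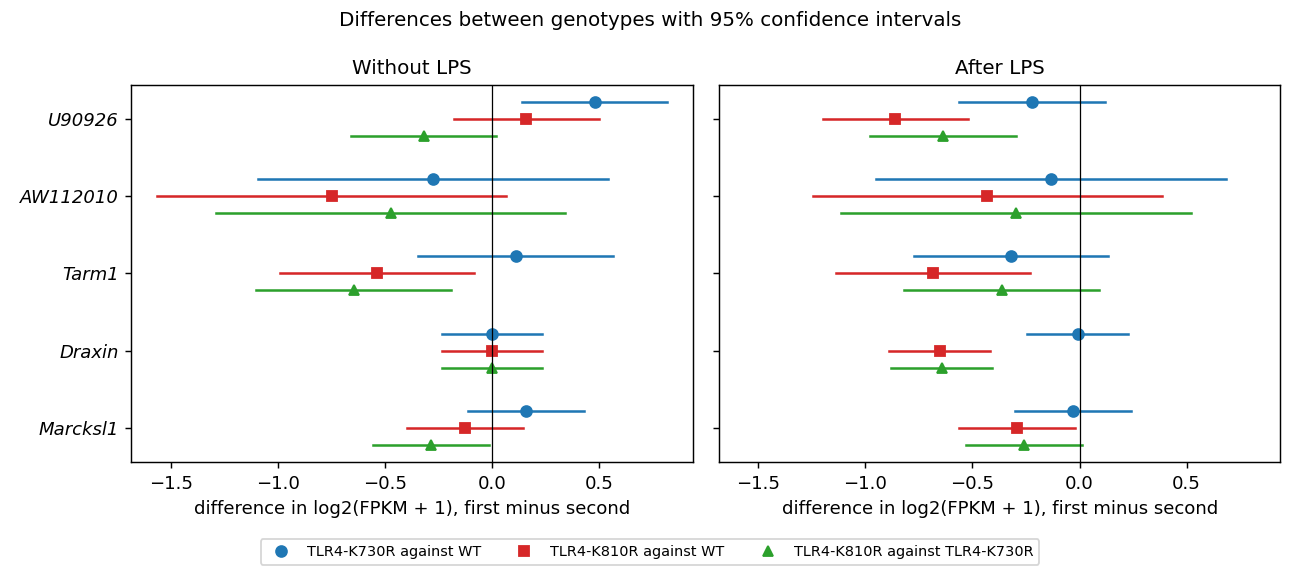
Differences between genotypes in log2(FPKM + 1) without LPS (left) and after LPS (right) for the 5 genes, with 95% confidence intervals from limma. After LPS the TLR4-K810R against WT interval lies below 0 for U90926, Tarm1, Draxin and Marcksl1 and includes 0 for AW112010.

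Without LPS no difference between genotypes passed for any of the 5 genes, with 0.268% of genes called for TLR4-K730R against WT, 1.58% for TLR4-K810R against WT and 0.0824% between the mutants. Draxin was listed at 0 in all 9 control libraries, so its comparisons could not pass and tell nothing. U90926 reached 1 FPKM in no control library, so little can be read from its comparisons. U90926 was higher in TLR4-K730R than in WT by 0.48 (interval 0.14 to 0.82, limma adjusted p = 0.408), at levels under 1 FPKM. Tarm1 was lower in TLR4-K810R than in WT by a difference of -0.54 (interval -0.99 to -0.08, limma adjusted p = 0.243). AW112010 stood at 10.8 ± 1.82 FPKM in WT (SD, n = 3), 8.70 ± 0.739 for TLR4-K730R and 6.04 ± 1.21 for TLR4-K810R, the TLR4-K810R libraries lying below those of both other genotypes. Its difference of -0.75 from WT did not pass (interval -1.57 to 0.07, limma adjusted p = 0.409). All 3 TLR4-K810R libraries lay below WT for 6.64% of tested genes. Interferon-stimulated genes, read beside AW112010, passed as lower in untreated TLR4-K810R cells in 12 of 20 cases and in untreated TLR4-K730R cells in 9 of 20, with median differences of -1.58 and -1.20, against 0.649% and 0.216% of all tested genes called lower. In untreated TLR4-K810R cells 2 of 6 tested mesothelial and fibroblast markers, Col1a1 and Dcn, passed as higher (list median 1.73), and the markers summed to 69.9 to 186 FPKM against 16.7 to 30.8 FPKM in WT control and 37.4 to 44.7 FPKM in TLR4-K730R control. Their part was not tested. After LPS, 2 of the 20 interferon-stimulated genes, Gbp4 (-1.77, limma adjusted p = 0.00506) and Iigp1 (-1.74, limma adjusted p = 0.0056), were lower in TLR4-K810R than in WT. Of all tested genes 0.134% were called there in either direction.

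The size of the LPS response was compared between genotypes by the difference of differences. None of the 5 genes passed in any of the 3 comparisons, where 0.0412%, 0.124% and 0.0103% of genes were called. The response of U90926 was smaller in TLR4-K810R than in WT by a log2 difference of -1.02 (interval -1.50 to -0.54, limma adjusted p = 0.0564). It was smaller in TLR4-K730R than in WT by -0.70 (interval -1.18 to -0.22, limma adjusted p = 0.532). The value for TLR4-K730R rests largely on control levels under 1 FPKM, which differed from WT by 0.48. The levels after LPS differed by -0.22 (interval -0.56 to 0.12). For Draxin, at 0 in every control library, the difference of responses is the same number as the difference after LPS given above and adds nothing to it. Responses of Tarm1 (-0.15) and Marcksl1 (-0.17) in TLR4-K810R had intervals from -0.79 to 0.49 and from -0.55 to 0.22. AW112010 alone had a positive value there (0.32, interval -0.84 to 1.47). Between the mutants, the response in TLR4-K810R minus that in TLR4-K730R was positive for AW112010 (0.18), Tarm1 (0.28) and Marcksl1 (0.024) and negative for U90926 (-0.32) and Draxin.

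The reference targets were read in the same comparison. In TLR4-K810R against WT after LPS, 0 of 10 passed and their median difference was -0.83. Nos2 averaged 70.2 FPKM against 343 FPKM in WT (difference -2.20, limma adjusted p = 0.0237) and Cxcl10, an interferon-inducible chemokine, 198 against 741 FPKM (-1.83, limma adjusted p = 0.0334). Tnf averaged 252 against 251 FPKM, a difference of 0.0027 (limma adjusted p = 0.998). The U90926 and Draxin differences lay between those of Tnf and Nos2.

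Transcript events show which exons carried the signal. For U90926 the first exon (chr5:92215294-92215408) and the last exon (chr5:92209893-92210147) agreed within 1.08 times in all 16 libraries that listed the gene. For Marcksl1, a gene of 2 exons, both ends were equal in all 18 libraries. Draxin was read from a first exon at chr4:148130573-148130698 and a last exon at chr4:148098437-148102582, and library WT LPS 3 alone listed a nearer last exon (chr4:148115324-148115394) with 1.18 FPKM, or 10.5% of the last-exon FPKM there.

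Tarm1 used 2 last exons and 1 cassette exon. Its first exon was listed at chr7:3502432-3502518 in all 18 libraries, so it opens 106 bases inside the RefSeq start from which the motif distances were counted. The far last exon (chr7:3486500-3487030) carried 325, 346 and 338 FPKM in WT LPS, while the near last exon (chr7:3488570-3489221) carried 7.98, 7.28 and 6.30 FPKM. The near last exon made up 1.83% to 3.64% of the last-exon FPKM over the 9 LPS libraries. In control libraries, where the gene was at a few FPKM, that share ranged from 0.777% to 15.6%. The cassette exon of 36 bases (chr7:3498196-3498231, minus strand) is shown in capitals with 20 bases of the exon on either side, as spliced.
Tarm1 cassette exon: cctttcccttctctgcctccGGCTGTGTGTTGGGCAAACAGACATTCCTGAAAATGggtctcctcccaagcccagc
This exon was included in nearly all LPS-induced transcripts. In WT LPS the form with the exon carried 333, 353 and 344 FPKM and the form without it 0.274, 0.229 and 0.291 FPKM. The skipped form made up 0.0650% to 0.0844% of both in WT LPS, 0.0686% to 0.0866% in TLR4-K730R LPS and 0.138% to 0.224% in TLR4-K810R LPS. Its level in TLR4-K810R LPS (0.387, 0.479 and 0.342 FPKM) lay above that of all other LPS libraries, at under 1 FPKM and with the counts behind it unknown. In control libraries the skipped form was listed in 5 of 9, at up to 0.286 FPKM.

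The first exon listed for AW112010 varied between libraries of the same group. Its last exon (chr19:11047612-11048093) was listed in all 18 libraries and set the gene's value. The annotated near first exon (chr19:11050388-11050566, minus strand) and the far first exon (chr19:11055780-11055808, minus strand) are printed because both were listed as first exons in LPS libraries. Capitals in the near exon mark the 50 bases (chr19:11050388-11050437) that are also listed as an exon with its 5′ edge further in.
AW112010 near first exon: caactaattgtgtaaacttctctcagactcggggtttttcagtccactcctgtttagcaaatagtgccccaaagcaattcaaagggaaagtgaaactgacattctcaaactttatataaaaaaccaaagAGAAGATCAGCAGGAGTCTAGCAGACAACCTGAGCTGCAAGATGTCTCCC
AW112010 far first exon: ATATAAAAACCCAAAGAGAAGATCAGCAG
The far exon was identical to bases 114 to 142 of the near exon at 28 of its 29 positions (the next best placement matched 14). Its last 13 bases are the same as those that open the stretch in capitals. The motif letters searched before the annotated start were also looked for within the near exon, counting from its first base. ISRE letters were matched at bases 86 to 95 (1.99% of promoter windows cut to 179 bases hold them), C/EBP letters on the other strand at 53 to 60 (6.63%) and TATA box letters at 115 to 120 and, overlapping them on the other strand, at 111 to 116 (8.89%). NF-κB, AP-1, GAS and PU.1 letters were not matched. The part of the likeness between both exons in how reads were divided between the exons was not tested.

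In control libraries the first-exon events added up to the last-exon value, within 1.1 times, in all 9. In LPS libraries they did so in 4 of 9, and they fell to 2.55% of it in library WT LPS 1 and 2.60% in library TLR4-K810R LPS 2. The near exon as an annotated first exon carried 19.3, 57.5 and 578 FPKM in WT LPS, 68.8, 59.4 and 18.9 FPKM in TLR4-K730R LPS and 29.3, 8.45 and 369 FPKM in TLR4-K810R LPS. With its 5′ edge further in, the near exon carried 845, 128 and 0 FPKM, 394, 473 and 269 FPKM, and 293, 316 and 0 FPKM in the same libraries. Most of this had the edge of the 50 bases in capitals, except for 35.9 FPKM in TLR4-K730R LPS 1 and 95.2 FPKM in TLR4-K730R LPS 3 with edges nearer to the annotated start. As an exon that follows the far first exon, the 50 bases carried 473 FPKM in TLR4-K730R LPS 2 and 293 FPKM in TLR4-K810R LPS 1. In the other LPS libraries they were listed so at 0 FPKM, and what precedes them there is not shown. The near exon as a first exon and with its edge further in summed to 98.4% to 100% of the last-exon FPKM in the 9 LPS libraries. The far first exon carried 477 FPKM in library TLR4-K730R LPS 2 and 293 FPKM in library TLR4-K810R LPS 1, 88.9% and 90.9% of the last-exon value. In the other LPS libraries the far exon carried 2.18 to 2.98 FPKM in WT, 39.0 and 95.2 FPKM in TLR4-K730R, and 0.00268 and 1.34 FPKM in TLR4-K810R. All 3 TLR4-K730R values thus lay above all 3 WT values, while the TLR4-K810R values lay below the WT range in 2 libraries and within the TLR4-K730R range in 1. This was not tested, and the share of events that separate in this way was not computed, so nothing is read from it. With first-exon events alone as the gene's value, the AW112010 difference of TLR4-K810R from WT after LPS was 0.15 and that of TLR4-K730R 1.01, in place of -0.43 and -0.13.

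**Figure D4:**
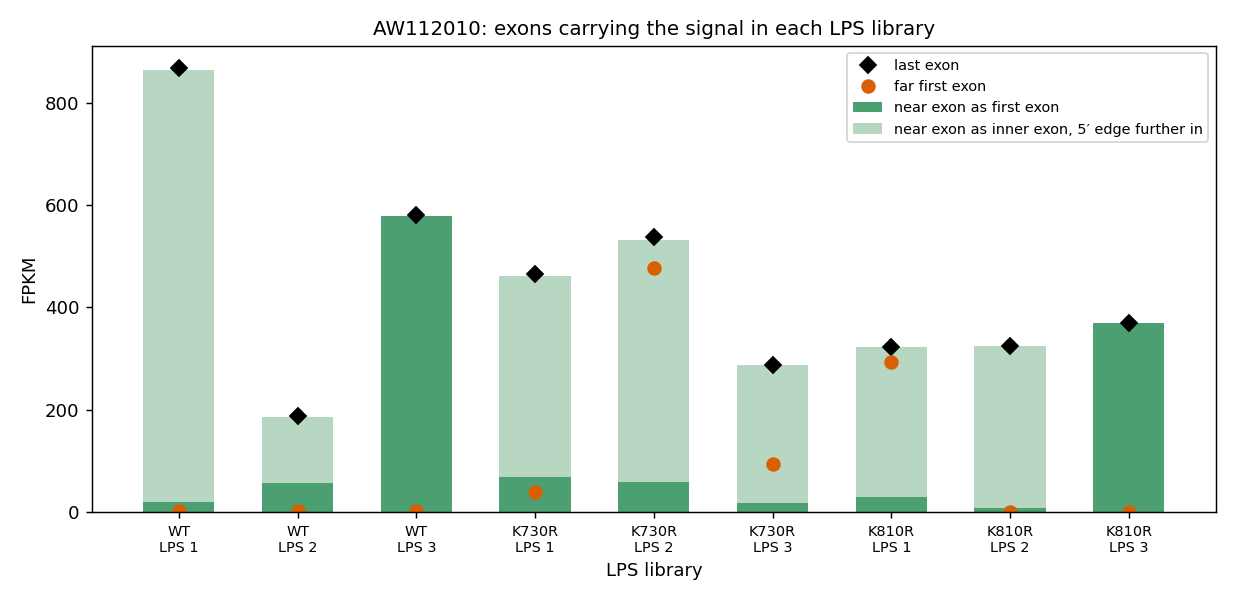
FPKM of AW112010 exons in the 9 LPS libraries: bars stack the near exon as a first exon (dark) and with its 5′ edge further in (light, labelled inner exon), diamonds give the last exon and orange points the far first exon. The stacked bars reach the last-exon value in every library, while the far first exon is highest in TLR4-K730R LPS 2 and TLR4-K810R LPS 1.

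Genes of the same pathways were read from lists, whose counts stand beside 10.4% of tested genes called higher and 23.9% called lower after LPS in WT (15.5% and 14.2% after scaling by the median of ratios). Other long noncoding RNA genes of macrophages were thinly covered, with 3 of 16 tested. Ptgs2os2, a noncoding neighbour of the prostaglandin synthase gene Ptgs2, averaged 0.159 FPKM in WT control and 5.22 FPKM in WT LPS and passed as higher (log2 difference 2.44). After LPS it averaged 1.82 FPKM in TLR4-K810R, a difference of -1.15 from WT that did not pass (limma adjusted p = 0.0165). Gm14005 also passed as higher after LPS in WT (1.92) and Epb41l4aos did not (-0.71).

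Of 13 TARM1 partners and leukocyte receptor genes, 8 were tested, and in WT 4 passed as higher and 2 as lower after LPS, against 10.4% and 23.9% of all tested genes. Fcer1g, the signalling chain of the receptor, averaged 642 FPKM without and 1107 FPKM with LPS (log2 difference 0.79). The kinases Syk (0.70) and Lyn (1.31) and the adaptor Malt1 (2.82) also rose, and Card9 (-1.03) and the adaptor Tyrobp (-1.20) fell. None of these 6 turned sign after scaling by the median of ratios. None of the 8 passed between TLR4-K810R and WT after LPS, with a median of 0.013. Fcer1g differed there by -0.18 (limma adjusted p = 0.309) while Tarm1 differed by -0.68.

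For Draxin, 7 of 17 netrin, draxin and Wnt receptor genes or ligands were tested, and 3 passed as lower after LPS in WT, against 23.9% of all tested genes. Lrp6, the coreceptor at which draxin acts, fell in WT from 8.34 to 2.32 FPKM (log2 difference -1.49), as did its relative Lrp5 from 7.29 to 2.34 FPKM (-1.32) and Rgmb, a ligand of neogenin, from 2.41 to 0.673 FPKM (-1.09). None passed as higher. Neo1, the DCC relative neogenin, averaged 1.07 FPKM without and 0.854 FPKM with LPS and did not pass. None of the 7 passed for TLR4-K810R against WT after LPS (median 0.28).

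Of 14 MARCKS family genes and regulators 12 were tested, and in WT 1 passed as higher and 5 as lower after LPS, against 10.4% and 23.9% of all tested genes. After scaling these counts were 2 and 3, with Calm2 and Pip4k2a no longer called. Actb, which encodes β-actin, rose (0.87). The protein kinase C genes Prkcb (-1.36) and Prkch (-1.39), the calmodulin gene Calm2 (-1.61) and the phosphoinositide kinase genes Pip5k1c (-1.25) and Pip4k2a (-0.71) fell, while Marcksl1 was higher by 3.97. None of the 12 passed for TLR4-K810R against WT after LPS. The median of the list after LPS in WT was -0.35 beside -0.28 for all genes, and -0.024 after scaling by the median of ratios, which moved the median of all genes in that comparison by 0.26.

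Neighbouring genes were read for each locus. Marcksl1 ends 119 bases from Hdac1, which lies on the other strand and encodes a histone deacetylase. Hdac1 averaged 14.8 FPKM in WT control and 25.4 FPKM in WT LPS, which did not pass (log2 difference 0.69, limma adjusted p = 0.0106), and it passed as higher after LPS in TLR4-K730R (0.83, limma adjusted p = 0.00281) and in TLR4-K810R (0.79, limma adjusted p = 0.00475). Its LPS response differed from that of WT by 0.15 and 0.11 (limma adjusted p = 0.946 and 0.905), so no difference between genotypes was shown. Its difference in TLR4-K810R against WT after LPS was 0.12. Ppef2, a phosphatase gene 11271 bases from U90926 on the same strand, was listed at 0 in WT control, averaged 2.93 FPKM in WT LPS, and averaged 0.859 FPKM in TLR4-K810R LPS (difference from WT -1.18, limma adjusted p = 0.0397). Uso1, 7095 bases to the other side, averaged 19.0 and 23.5 FPKM in WT without and with LPS (0.30, limma adjusted p = 0.516). Beside AW112010, Ms4a8a (11663 bases away) passed as higher after LPS in WT by 0.67 and Ccdc86 (98346 bases away) by 1.17. Beside Draxin, Agtrap (10406 bases away) passed by 0.83 and Fbxo6 (15018 bases away) did not (0.37). Lower means after LPS in WT that did not pass were found for Ndufa3, 114749 bases from Tarm1 (-0.72, limma adjusted p = 0.0581), and for Bsdc1, 25083 bases from Marcksl1 (-0.31, limma adjusted p = 0.139). In untreated TLR4-K810R cells Ccdc86 (-0.58, limma adjusted p = 0.0045) and Agtrap (-0.44, limma adjusted p = 0.00824) passed as lower than in WT. After LPS Ms4a8a lay below WT in all 3 TLR4-K810R libraries and did not pass (-0.81, limma adjusted p = 0.0301). In WT, each neighbour given with its value had a smaller difference of LPS from control, in size, than the gene beside it. The genes beside them were chosen for a large difference in this contrast. That choice largely sets this outcome, so nothing is read from it.

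The genes most like each of the 5 were found by Pearson's r of log2(FPKM + 1), as a description. Over all 18 libraries, which share the contrast of LPS with control, the nearest were Ms4a4a (r = 0.996), Gbp5 (0.996) and Il1b (0.995) for U90926, and Lcp2 (0.988), Slc31a2 (0.987) and Slfn2 (0.986) for AW112010. They were Cd274 (0.994), Itga5 (0.994) and Nod2 (0.993) for Tarm1, Adora2b (0.995), Tnfsf15 (0.994) and Ccl4 (0.994) for Draxin, and Lcn2 (0.996), Tgm2 (0.995) and Gbp5 (0.995) for Marcksl1. Within the 9 LPS libraries, which share the 3 genotypes, Draxin was most like Ccl8 (r = 0.970), a monocyte chemokine that averaged 5.53 FPKM in WT LPS, 4.57 FPKM in TLR4-K730R LPS but 0.894 FPKM in TLR4-K810R LPS. U90926 was most like Ms4a6d (0.960), Tarm1 like the lysozyme gene Lyz1 (0.964), Marcksl1 like H2-Q4 (0.988) and AW112010 like 1110008L16Rik (0.895). Among themselves over the 9 LPS libraries, U90926 and Draxin had r = 0.875, U90926 and Marcksl1 0.806, and Draxin and Tarm1 0.766, whereas AW112010 had r between 0.00 and 0.33 with the other 4.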

How the data were processed

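RNA-seq of 18 libraries was used, grouped by the genotype and treatment in the sample labels. The authors deposited FPKM values per transcript event and library with Ensembl mouse gene numbers. The aligner and event caller are not given in the sources used here. The submitters' notes list the build hg18, but the coordinates match mouse GRCm38. Only events that overlap the gene they name, on its strand (GENCODE M21), were used, which dropped 5.99% of first-exon and last-exon FPKM. A gene's value is the larger of the summed first-exon and summed last-exon FPKM. Of 13598 genes, the 9707 that reached 1 FPKM in 3 or more libraries were fitted with limma 3.58.1 in R 4.3.3 on log2(FPKM + 1), all 6 groups in one model with a variance trend, and p-values were adjusted by Benjamini-Hochberg over the 9707 genes of each comparison. A call needs an adjusted p below 0.01, the study's threshold. The code was tested on simulated data. No counts are in the files used here, so depth is unknown and no counting interval is given.

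The 5 genes and the lists were chosen with earlier results of these data known. Named genes are the 5, the 3 most correlated genes per gene over 18 and over 9 LPS libraries, the nearest tested gene on each side, and members of the lists. One neighbouring gene is not reported here. Correlations of deviations were -0.32 to 0.10 between libraries of the same number and -0.12 to 0.27 between those of different numbers. The labels do not say whether replicate numbers pair libraries, and these correlations cannot settle it. Alternatives were other pseudocounts, filters, gene values, scalings, variance models, a replicate block, only the groups compared, and leaving out each library. Promoter sequences are from RefSeq (GRCm38) and exon sequences from GENCODE M21 transcripts. Matches were found for all 5 genes. Protein sequences were not used here.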

Additional observations from a re-analysis of the deposited data

How the results depend on the processing

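Of the 5 genes, the count passing for TLR4-K810R against WT after LPS was 0 and became 2 (U90926 and Draxin) with a pseudocount of 5, with median-of-ratios scaling and with library weights, and 1 (Draxin) with last-exon FPKM alone or without the variance trend. For TLR4-K810R against TLR4-K730R after LPS the count of 0 became 2 with a pseudocount of 5 and 1 with scaling, without the trend and with weights, and for the LPS response of TLR4-K810R minus WT it became 1 (U90926) with a pseudocount of 5. Leaving out 1 library gave 0 to 2 for the comparison with WT (2 without WT LPS 3, 1 without TLR4-K730R LPS 3 or TLR4-K810R control 3) and 0 to 1 for that with TLR4-K730R (1 without WT LPS 3). A replicate block gave 0 in every comparison, and whether the library numbers pair samples is unknown. The causes were not tested.

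Differences that turned sign had adjusted p of at least 0.773. With a pseudocount of 0.1 these were the response of Tarm1 in TLR4-K810R minus WT (0.11) and of U90926 in TLR4-K810R minus TLR4-K730R (0.50), and with a pseudocount of 5 that of Tarm1 in the latter (-0.080). With scaling, TLR4-K730R against WT after LPS turned for Draxin (0.045, its response likewise 0.045) and Marcksl1 (0.028), as did the response of Marcksl1 in TLR4-K810R minus TLR4-K730R (-0.12). With first-exon FPKM alone AW112010 turned for TLR4-K730R (1.01) and TLR4-K810R (0.15) against WT after LPS and for the response of TLR4-K810R minus TLR4-K730R (-0.38). With weights Draxin turned for TLR4-K730R against WT after LPS and for its response (0.012 each).

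With 1 library left out, differences against WT after LPS ranged for TLR4-K730R from -0.77 to 0.33 (AW112010), -0.055 to 0.067 (Draxin, response alike) and -0.10 to 0.0083 (Marcksl1), and for TLR4-K810R from -1.07 to 0.031 (AW112010). Without LPS they ranged from -0.062 to 0.27 (Tarm1, TLR4-K730R) and -0.21 to 0.013 (Marcksl1, TLR4-K810R). Responses against WT ranged for AW112010 from -0.49 to 0.60 (TLR4-K730R) and -0.32 to 0.78 (TLR4-K810R) and for Tarm1 from -0.31 to 0.053 (TLR4-K810R), and TLR4-K810R minus TLR4-K730R from -0.087 to 0.36 (AW112010) and -0.11 to 0.11 (Marcksl1). Values without counts limit what can be said of genes near 0 FPKM, namely U90926 and Draxin without LPS and the skipped Tarm1 form.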
